A study of Mus musculus with 17 samples.

Results

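*Tcf3*, *Smarcad1*, *Nras* and *Setdb1* are 4 of the 54532 genes in the table. They were taken by gene name because the study names them among the genes whose splicing differed in *Usb1* knockout cells. The splicing was read from the same libraries as the levels given here, so the choice of the genes was not made on separate samples. The table holds 1 value per gene and library, and the total level of each gene is described over genotype and day. The cells were R1/E mouse embryonic stem cells, either wild-type or with *Usb1* disrupted by CRISPR/Cas9. They were collected under self-renewal without retinoic acid (RA) at day 0, and after 1 or 3 days with RA, which starts differentiation. Wild-type cells at day 0 had 2 libraries and each of the other 5 groups had 3, which made 17 libraries. All knockout libraries came from the single line KO-1, so the knockout and a difference between lines cannot be told apart. The study calls the libraries of a group independent biological replicates.

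Spliceosomes recognise the start of an intron in part through U6, a small nuclear RNA whose terminal uridines are shortened by the USB1 nuclease. The 4 genes act in separate pathways. *Tcf3* encodes the E2A proteins E12 and E47, helix-loop-helix transcription factors that bind E-box DNA as dimers and are held in check by Id proteins. *Nras* encodes a small GTPase that passes growth factor signals to the Raf-MEK-ERK kinases, a pathway known for moving embryonic stem cells out of self-renewal. *Setdb1* encodes a methyltransferase that places the repressive mark H3K9me3 on retroelements. *Smarcad1* encodes an SNF2-type chromatin remodeller that handles nucleosomes on repressed chromatin and at DNA breaks.

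All 4 genes have annotated transcripts that end in different products, and some of these differ by 1 exon or 1 intron (GENCODE M21, GRCm38). *Tcf3* (ENSMUSG00000020167, chr10:80409514-80433647, minus strand) had 14 transcripts, of which 12 are coding. *Smarcad1* (ENSMUSG00000029920, chr6:65042583-65116061, plus strand) had 15, with 4 coding, 4 marked for nonsense-mediated decay and 5 that retain an intron. *Nras* (ENSMUSG00000027852, chr3:103058285-103067914, plus strand) had 9, with 5 coding and 3 marked for decay. *Setdb1* (ENSMUSG00000015697, chr3:95323525-95357202, minus strand) had 6, with 3 coding and 3 that retain an intron. The number of distinct splice junctions was 25 for *Tcf3*, 34 for *Smarcad1*, 14 for *Nras* and 23 for *Setdb1*, where the median of the 14463 tested coding genes was 11. The values of each gene were divided by 1 length, the joined length of all its exons, so a change of isoform within a gene cannot be read from them. The sequences of annotated alternatives are shown because they are the kind of difference that a gene-level value does not separate. Whether these are the events that the study found was not analysed here.

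The alternative exons of *Tcf3* both encode a helix-loop-helix region and are used in place of each other between the same flanking exons. Exon A (chr10:80412827-80413062, 236 bases) comes first in the direction of transcription and exon B (chr10:80410398-80410624, 227 bases) second. With these ends, exon A is in 4 and exon B in 6 of the 14 annotated transcripts, so some transcripts carry neither. Over 225 aligned positions 80.4% of the bases were identical, and the capitals mark the 3 aligned runs of at least 12 identical bases.
Tcf3 exon A: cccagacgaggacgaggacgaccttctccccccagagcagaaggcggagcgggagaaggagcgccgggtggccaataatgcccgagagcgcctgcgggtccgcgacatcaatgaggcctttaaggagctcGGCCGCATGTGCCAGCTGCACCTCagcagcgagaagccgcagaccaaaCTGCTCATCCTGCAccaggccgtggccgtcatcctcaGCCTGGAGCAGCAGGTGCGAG
Tcf3 exon B: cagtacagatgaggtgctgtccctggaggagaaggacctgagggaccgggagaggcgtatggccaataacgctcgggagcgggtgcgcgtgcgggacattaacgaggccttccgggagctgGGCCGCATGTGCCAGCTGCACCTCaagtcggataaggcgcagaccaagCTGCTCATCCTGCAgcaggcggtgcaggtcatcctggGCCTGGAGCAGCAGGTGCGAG

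In *Smarcad1*, a coding exon of 166 bases (chr6:65056403-65056568, plus strand) is left out of an annotated decay transcript. Its length leaves a remainder of 1 after division by 3, so leaving it out shifts the reading frame. The capitals mark its first and last 3 bases.
Smarcad1 exon: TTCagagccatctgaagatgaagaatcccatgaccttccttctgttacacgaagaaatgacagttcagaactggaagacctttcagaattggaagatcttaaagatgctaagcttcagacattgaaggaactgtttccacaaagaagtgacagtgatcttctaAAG
In *Nras*, an annotated decay transcript carries an extra exon of 102 bases (chr3:103059939-103060040, plus strand) in which the reading frame ends. The first 30 bases are shown, with the stop codon in capitals.
Nras exon start: ggtctcactgcactaccctggctggccTGA
*Setdb1* has an intron of 1080 bases (chr3:95337266-95338345, minus strand) and *Smarcad1* one of 688 bases (chr6:65107964-65108651, plus strand) that stay in annotated transcripts. The first 30 bases of each are shown, with the first 6 in capitals.
Setdb1 intron start: GTGAGTtggtggggtgtacaggcattgctg
Smarcad1 intron start: GTATTAaacagaatgactgactgtctctct

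The values were deposited per gene as TPM, read counts per gene length scaled to 1 total in each library. Reads recovered from them gave 15404379 to 17300189 reads on genes per library, and 1527 to 5026 reads for each of the 4 genes in each library, a counting error of 1.41 to 2.56%. This covers counting error only. *Usb1* was lower in every knockout library than in every wild-type library of the same day, at 15.2 to 17.9 against 37.1 to 39.95 TPM at day 0, 18.5 to 21.4 against 48.6 to 56.9 at day 1 and 14.7 to 20.4 against 32.0 to 35.8 at day 3. Wild-type day 0 replicate 1 stood apart, with 239 genes at 1 read. Knockout day 3 replicate 1 had 1212 and wild-type day 0 replicate 2 had 1341, where the remaining libraries had 2135 to 2448. Both wild-type day 0 libraries were thus low in such genes, so leaving out replicate 1 does not remove this. Differences of the 4 genes that rest on wild-type day 0 replicate 1 are given with and without it. Of the markers fixed for the cell type, the summed level of 6 stem cell genes was 5063 to 5152 TPM in wild-type and 4927 to 5394 in knockout cells at day 0, 2836 to 2922 and 3587 to 3678 at day 1, and 312 to 353 and 510 to 578 at day 3. The sum of 5 RA response genes was 1062 to 1125 TPM in wild-type and 568 to 609 in knockout cells at day 1, and that of 4 primitive endoderm genes was 319 to 353 and 136 to 153 at day 3. At day 3 the sums of 3 neural genes (87.1 to 94.2 TPM in wild-type, 109 to 129 in knockout cells) and of 6 fibroblast genes (43.2 to 53.2 and 68.7 to 77.4) were higher in knockout cells. The neural sum was mostly *Nes* (means of 87.3 and 112 TPM). *Sox1* was also higher (1.56 and 3.42 TPM) and *Pax6* was not (0.90 and 0.79 TPM). In the fibroblast sum the 3 collagen genes were higher and *Dcn* was not (15.5 and 14.2 TPM), while *Lum* and *Postn* were below 1 TPM. At day 0, 4 of 6 fibroblast markers were at 0 in both wild-type libraries and 3 of 6 in all knockout libraries.

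The 4 genes were expressed in every library and passed the filter on low values. *Tcf3* had the highest level of the 4 in each of the 6 groups, with group means from 159.8 to 256 TPM, above at least 94.8% of the tested genes. *Smarcad1* had the lowest level in each group, with means from 28.8 to 70.2 TPM, above 71.4 to 87.0% of the tested genes. *Nras* (66.1 to 99.7 TPM) and *Setdb1* (69.2 to 98.3 TPM) lay between them and changed places. The libraries of *Nras* and *Setdb1* overlapped in wild-type cells at day 0 and in knockout cells at day 0 and 1, so their order there was not larger than the spread. In the other 3 groups they did not overlap, with *Setdb1* the higher at day 1 in wild-type cells and *Nras* the higher at day 3 in both genotypes. These orders rest on the joined exon length by which each gene was divided, 13322 bases for *Smarcad1* and 4039 for *Tcf3*, which counts exons of decay and intron-retaining transcripts too. In wild-type day 0 replicate 1, *Smarcad1* had 4616 reads and *Tcf3* 2599, so the order of levels holds for this length and not for reads.

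**Figure D1:**
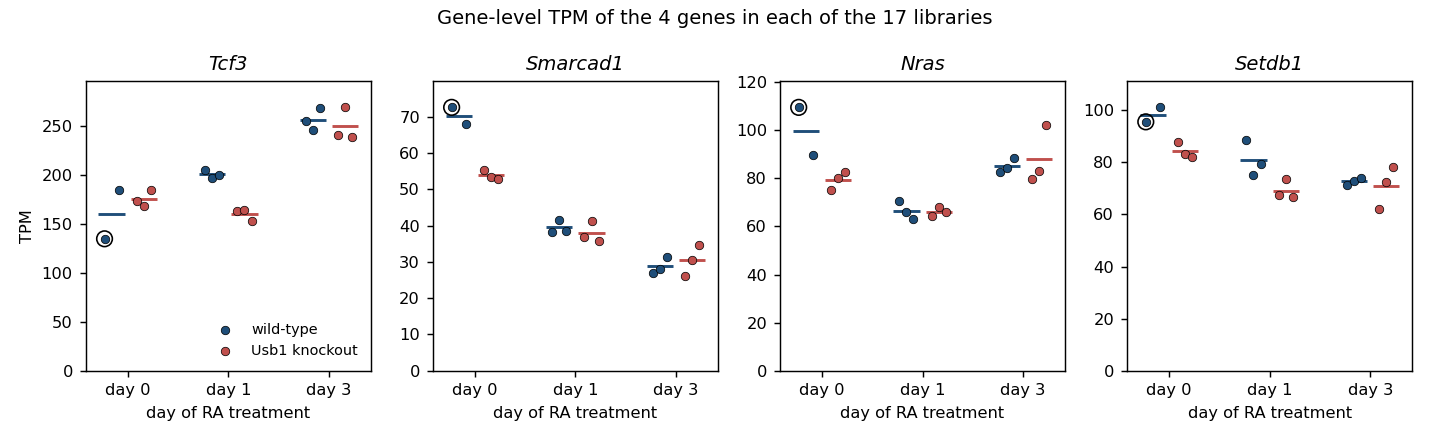
TPM (linear axis from 0) of each gene in each library, by day of RA treatment. Points are libraries, lines are group means, and the ringed point is wild-type day 0 replicate 1. *Tcf3* rose to 238 TPM or more in every day 3 library, *Smarcad1* lay at 34.5 TPM or less there, and *Nras* was lowest at day 1.

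*Tcf3* ended higher at day 3 than at day 0 in both genotypes, but at day 1 the levels lay apart. At day 0, the wild-type libraries had 135 and 185 TPM and the knockout libraries 168, 174 and 184 TPM. At day 1, wild-type cells had 197, 199 and 205 TPM and knockout cells 153, 163 and 164 TPM. At day 3, wild-type cells had 245, 255 and 268.5 TPM and knockout cells 238, 241 and 269 TPM. The genotypes overlapped at day 0 and 3 and did not overlap at day 1, when the wild-type values were above both wild-type day 0 libraries and the knockout values were below all knockout day 0 libraries.

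*Smarcad1* fell with RA in both genotypes and started from a lower level in knockout cells. At day 0, wild-type cells had 67.9 and 72.5 TPM and knockout cells 52.8, 53.4 and 55.4 TPM. At day 1, wild-type cells had 38.3, 38.6 and 41.4 TPM and knockout cells 35.6, 36.8 and 41.3 TPM. At day 3, wild-type cells had 27.0, 28.1 and 31.3 TPM and knockout cells 26.1, 30.6 and 34.5 TPM. Only at day 0 did the genotypes not overlap.

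*Nras* dipped at day 1 in both genotypes and was higher again at day 3. At day 0, wild-type cells had 89.9 and 109 TPM and knockout cells 75.2, 80.3 and 82.7 TPM. At day 1, wild-type cells had 63.1, 66.0 and 70.7 TPM and knockout cells 64.3, 65.9 and 68.0 TPM. At day 3, wild-type cells had 82.5, 84.4 and 88.6 TPM and knockout cells 79.6, 82.9 and 102 TPM. The day 0 difference between the wild-type libraries was larger than that between any wild-type libraries of a later day.

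*Setdb1* was lower after RA in both genotypes, by less than *Smarcad1*. At day 0, wild-type cells had 95.5 and 101 TPM and knockout cells 82.0, 83.2 and 88.0 TPM. At day 1, wild-type cells had 75.3, 79.3 and 88.4 TPM and knockout cells 66.7, 67.3 and 73.5 TPM. At day 3, wild-type cells had 71.1, 72.9 and 74.0 TPM and knockout cells 62.1, 72.3 and 78.1 TPM. All knockout libraries were below all wild-type libraries at day 0 and at day 1, and the genotypes overlapped at day 3.

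The first question was whether the total level of these genes differed in the absence of *Usb1*. Differences were tested by limma on log2(TPM + 1) over all 21871 genes with at least 1 TPM in at least 2 libraries, and a gene passed the test at a Benjamini-Hochberg adjusted p under 0.05. At day 0, *Smarcad1* was 0.77-fold its wild-type level (log2 -0.38 ± 0.10 SE, adjusted p = 0.0286), and it was the 1 gene of 4 to pass, where 11.9% of all genes passed. The difference was 0.80-fold for *Nras* (log2 -0.32 ± 0.10, adjusted p = 0.0539) and 0.86-fold for *Setdb1* (log2 -0.22 ± 0.09, adjusted p = 0.126). For 3 of 4 genes the libraries did not overlap, where this held for 36.6% of all genes. *Tcf3* differed by a log2 of 0.15 (95% interval -0.06 to 0.36). In these bulk libraries, fewer cells that express a gene and less of its RNA per cell cannot be told apart.

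The day 0 values of *Tcf3* and *Nras* depended on which wild-type library was used. Replicate 1 was lower than replicate 2 by 0.45 on the log2 scale for *Tcf3*, a larger gap than for 88.9% of the 7318 genes with a mean above 20 TPM, and higher by 0.28 for *Nras*. For *Smarcad1* and *Setdb1* the gap was 0.09 and -0.08. Without replicate 1 the *Smarcad1* difference was -0.33 (limma, adjusted p = 0.168), that of *Nras* -0.18, that of *Setdb1* -0.26 and that of *Tcf3* -0.08, and none of the 4 passed. The *Smarcad1* call was also lost without knockout day 0 replicate 2 or 3, with values from -0.42 to -0.33, with an equal median (-0.25, adjusted p = 0.0624) and with only the day 0 libraries in the fit (adjusted p = 0.0601). Without replicate 2 the *Tcf3* difference was 0.38 and that of *Nras* -0.46, and both passed (limma, adjusted p = 0.00508 and 0.012). Each of these fits leaves wild-type day 0 with 1 library, which is then assumed to vary like the other groups.

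At day 1, *Tcf3* was 0.80-fold its wild-type level (log2 -0.32 ± 0.09 SE, limma, adjusted p = 0.0226), and the other 3 genes did not pass, where 17.3% of all genes passed. The *Tcf3* call was lost without wild-type day 1 replicate 1 or 3 or knockout day 1 replicate 3, with values from -0.34 to -0.29. *Setdb1* was 0.86-fold (log2 -0.22 ± 0.08, adjusted p = 0.0659), and *Smarcad1* and *Nras* differed by -0.06 (95% interval -0.25 to 0.14) and -0.01 (-0.20 to 0.18). The libraries of *Tcf3* and *Setdb1* did not overlap, where 39.8% of all genes did not. The median of all genes was itself -0.13 at this day, and relative to it *Tcf3* was at -0.19 and *Setdb1* at -0.09. With all libraries scaled to an equal median, which moved that median by 0.17 and the calls over all genes from 819 higher and 2970 lower to 1932 higher and 1146 lower, *Tcf3* was at -0.08 and no longer passed (adjusted p = 0.616), and *Smarcad1*, *Nras* and *Setdb1* were above 0, at 0.18, 0.23 and 0.02. RA response genes were also lower in knockout cells at this day, with the sums given above, and their part in the *Tcf3* value was not tested.

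At day 3 none of the 4 genes passed the limma test, where 7.52% of all genes did, and none had an unadjusted p under 0.05, where 19.1% of all genes had. With voom, a count-based form of limma run on the recovered reads, none passed either. The differences were between -0.04 and 0.07 on the log2 scale, with 95% intervals that reached from -0.23 to 0.26. All 4 genes overlapped between the genotypes, where 22% of all genes did not. *Usb1* itself differed by -1.20, -1.34 and -0.93 at day 0, 1 and 3 (limma, adjusted p = 3.23e-05, 1.97e-06 and 9.37e-05).

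**Figure D2:**
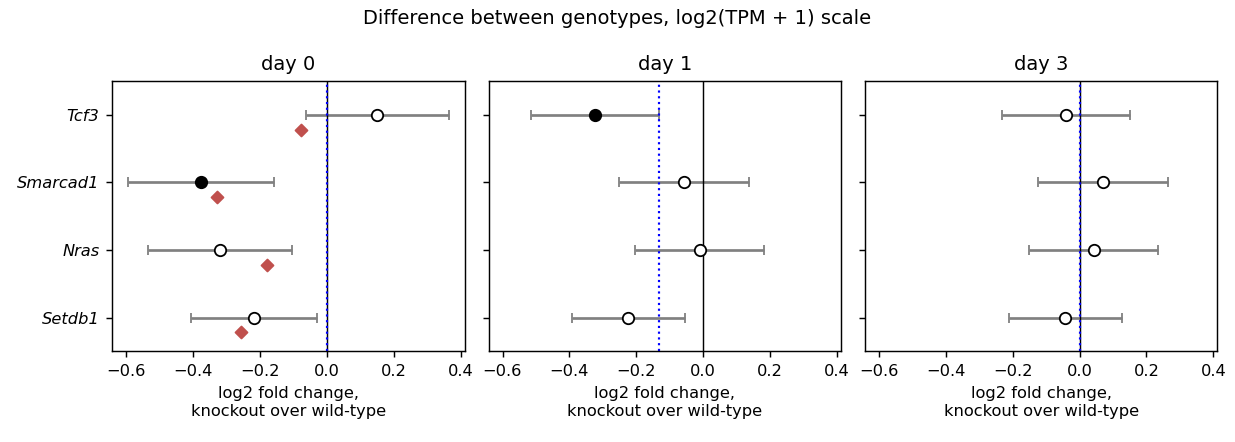
Log2 fold change of *Usb1* knockout over wild-type cells on the log2(TPM + 1) scale with 95% intervals from limma. Filled points passed the test, diamonds are the day 0 values without wild-type day 0 replicate 1, and the dotted line is the median of all genes. *Smarcad1* at day 0 (-0.38) and *Tcf3* at day 1 (-0.32) are filled, and all day 3 values lie near 0.

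The second question was how the genes responded to RA. In wild-type cells, all 4 passed between day 0 and day 1, where 38% of all genes passed. None of the 4 overlapped between these days, where 53.3% of all genes did not. *Tcf3* rose 1.27-fold (log2 0.34 ± 0.10 SE, limma, adjusted p = 0.014), *Smarcad1* fell to 0.57-fold (log2 -0.82 ± 0.10, adjusted p = 2.02e-05), *Nras* to 0.67-fold (log2 -0.57 ± 0.10, adjusted p = 0.000442) and *Setdb1* to 0.82-fold (log2 -0.28 ± 0.09, adjusted p = 0.0217). The median of all genes was 0.17, so *Tcf3* was 0.17 above it. Without wild-type day 0 replicate 1 *Tcf3* was at 0.12 and did not pass (adjusted p = 0.312), while *Smarcad1* (-0.77), *Nras* (-0.43) and *Setdb1* (-0.32) passed. The *Setdb1* call was lost without wild-type day 0 replicate 2 or wild-type day 1 replicate 2 or 3 (-0.34 to -0.23). *Tcf3* was also not past the test with an equal median (0.14) or with only the wild-type day 0 and day 1 libraries in the fit.

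From day 0 to day 3 in wild-type cells, *Smarcad1* fell to 0.42-fold (log2 -1.26 ± 0.10 SE, limma, adjusted p = 7.57e-08), and it was the 1 change of at least 2-fold among the 4 genes here, where 25.8% of all genes passed with such a change. *Tcf3* rose 1.62-fold (log2 0.69 ± 0.10, adjusted p = 3.17e-05) and *Setdb1* fell to 0.74-fold (log2 -0.43 ± 0.09, adjusted p = 0.000755), so 3 of 4 passed, where 52.1% of all genes did. The libraries of the 2 days did not overlap for any of the 4, where this held for 60% of all genes. *Nras* was at -0.22 (95% interval -0.43 to -0.0035, adjusted p = 0.0834). Without wild-type day 0 replicate 1 the values were -1.21, 0.47, -0.47 and -0.08, and the same 3 genes passed. The part of the change between day 1 and day 3 was 0.35 for *Tcf3*, -0.44 for *Smarcad1* and 0.35 for *Nras*, which passed, and -0.15 for *Setdb1*, which did not, where 43.8% of all genes passed.

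In knockout cells, *Smarcad1* (log2 -0.50 ± 0.09 SE, limma, adjusted p = 0.000789), *Setdb1* (-0.28 ± 0.08, adjusted p = 0.014) and *Nras* (-0.26 ± 0.09, adjusted p = 0.0432) fell between day 0 and day 1, where 27.7% of all genes passed. The *Nras* call was lost when any 1 of the 6 libraries compared was left out, with values from -0.30 to -0.23, and that of *Setdb1* without knockout day 0 replicate 1 or knockout day 1 replicate 1 or 3 (-0.33 to -0.25). *Tcf3* was at -0.13 (95% interval -0.32 to 0.06). By day 3, *Tcf3* was 1.42-fold (log2 0.50 ± 0.09, adjusted p = 0.000221), *Smarcad1* 0.57-fold (log2 -0.81 ± 0.09, adjusted p = 2.34e-06) and *Setdb1* 0.84-fold (log2 -0.25 ± 0.08, adjusted p = 0.0135) its day 0 level, where 51.5% of all genes passed. The *Setdb1* call was lost without knockout day 0 replicate 1 or knockout day 3 replicate 1, with values from -0.33 to -0.16. *Nras* was at 0.14 (95% interval -0.05 to 0.33). With an equal median, which moved the median of all genes by -0.21, *Nras* was at -0.17, *Tcf3* at 0.19 and *Smarcad1* at -1.12, and of these *Smarcad1* passed. Between day 1 and day 3, *Tcf3* (0.64) and *Nras* (0.40) rose and *Smarcad1* (-0.32) fell, where 44.9% of all genes passed, and *Setdb1* was at 0.03. The *Smarcad1* call was lost without knockout day 1 replicate 2 (range -0.41 to -0.21).

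**Figure D3:**
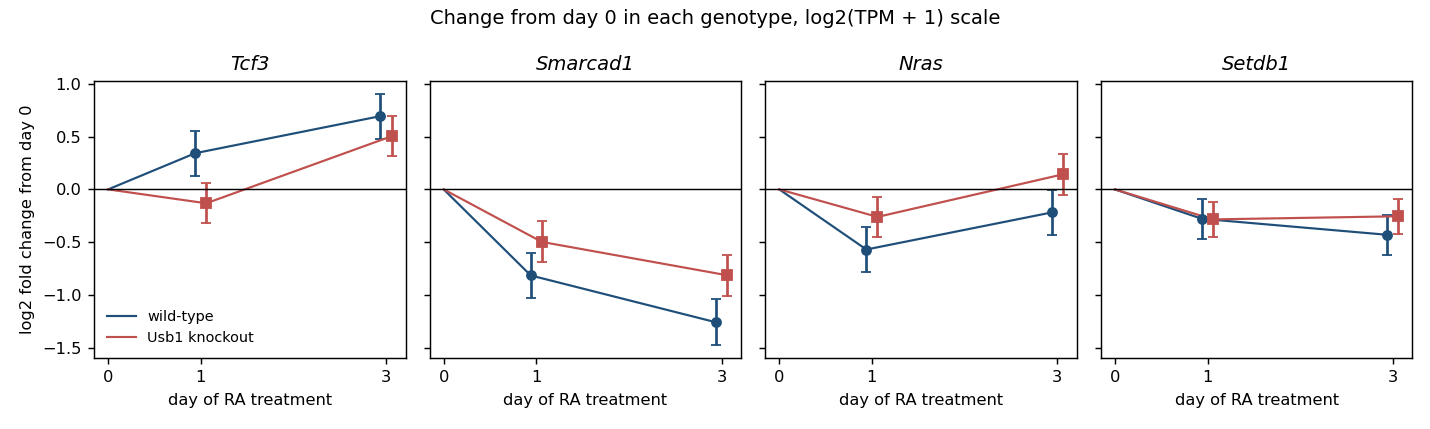
Log2 fold change from day 0 on the log2(TPM + 1) scale, by day of RA treatment, with 95% intervals from limma. *Tcf3* at day 1 is at 0.34 in wild-type and -0.13 in knockout cells, and *Smarcad1* at day 3 is at -1.26 and -0.81.

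Whether the 2 genotypes responded differently was tested as knockout response minus wild-type response. None of the 4 genes passed the limma test at day 1, at day 3 or from day 1 to day 3, where 2.23%, 6.15% and 7.61% of all genes passed. Unadjusted p-values under 0.05 were seen for 3, 2 and 1 of the 4 genes, where 18.1%, 22.4% and 21.3% of all genes had one. The day 1 difference of *Tcf3* was -0.47 ± 0.13 SE (limma, adjusted p = 0.0807), and the wild-type libraries had moved up and the knockout libraries down. It was -0.25 without wild-type day 0 replicate 1 (adjusted p = 0.279) and -0.70 without replicate 2 (adjusted p = 0.000687). The day 3 difference of *Smarcad1* was 0.45 ± 0.14 (limma, adjusted p = 0.0691), the smaller fall in knockout cells, and was 0.40 without replicate 1 (adjusted p = 0.197). It passed without wild-type day 0 replicate 2 or without knockout day 3 replicate 1, and over all libraries left out in turn it ranged from 0.35 to 0.55. Voom called these 2 (adjusted p = 0.0467 and 0.0363) and none of the other 10 values. The *Nras* difference was 0.31 at day 1 and 0.36 at day 3, and 0.17 and 0.22 without replicate 1. That of *Setdb1* was -0.01 and 0.18, and 0.03 and 0.22 without it. These comparisons share their day 0 libraries with those of the genotypes at day 0.

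The genes around *Tcf3* were read from a list of the other E proteins, the Id inhibitors and the TCF/LEF factors, 10 genes in all. At day 3 of RA, 7 rose and 1 fell in wild-type cells and 7 rose and 0 fell in knockout cells. Of all genes, 29.6% rose and 22.5% fell in wild-type cells, and 29.7% rose and 21.8% fell in knockout cells. *Id2*, an inhibitor of E protein binding, had 27.7 to 36.1 TPM in wild-type cells at day 0 and 273 to 313 TPM at day 3. *Tcf12*, a related E protein, had at most 7.59 and 22.7 TPM, well below *Tcf3* at both days. In knockout against wild-type cells at day 1, 4 of 10 were lower and 0 higher, where 13.6% of all genes were lower and 3.74% higher. The counts were the same after quantile and equal-median scaling, where 7.27% and 5.24% of all genes were lower. Without scaling, the 4 were *Id1* (log2 -0.76), *Id2* (-0.99), *Id3* (-0.74) and *Tcf7l1* (-0.60). *Tcf7l1* is the repressor that the stem cell literature often calls Tcf3, and it is a separate gene. At day 0 it had 92.4 and 106 TPM in wild-type cells and 70.9 to 75.5 TPM in knockout cells.

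Around *Nras*, 27 other genes of Ras proteins, their regulators and the Raf-MEK-ERK kinases were tested. In knockout against wild-type cells, 3 were lower at day 0 and 16 at day 1, and 0 were higher at either day, where 6.8% and 13.6% of all genes were lower and 5.08% and 3.74% higher. Without wild-type day 0 replicate 1, which leaves 1 library there, fewer passed at day 0, in the list and over all genes. The median log2 difference of the list was then -0.16. The day 1 count was 6 after quantile scaling, where 7.27% of all genes were lower. It was 2, with 1 higher, after equal-median scaling, where 5.24% of all genes were lower and 8.83% higher. With voom it was 15, with 0 higher, where 10.6% of all genes were lower and 6.07% higher. *Hras*, a related GTPase gene, was at a log2 of 0.10 at day 1 and did not pass. It rose at day 1 of RA in wild-type cells (0.49), while *Nras* fell. At day 3, 2 were higher and 2 lower in knockout cells, where 3.96% of all genes were higher and 3.56% lower. *Spred1* and *Spred2*, which restrain Ras, were the higher ones (log2 1.06 and 0.86), and *Mras*, a Ras-related GTPase, and *Rasgrp3* the lower ones (-0.57 and -0.51). *Rasgrp3*, a Ras activator, had 0 and 0.184 TPM in wild-type libraries at day 0, 9.71 to 12.4 at day 1 and 71.5 to 97.4 at day 3, and in knockout cells 1.48 to 1.68 at day 1 and 49.8 to 64.5 at day 3.

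Around *Setdb1*, 16 other genes of H3K9 methylation were tested. From day 0 to day 3 of RA, 3 rose and 8 fell in wild-type cells and 4 rose and 5 fell in knockout cells. Of all genes, 29.6% rose and 22.5% fell in wild-type cells, and 29.7% rose and 21.8% fell in knockout cells. With equal-median scaling the knockout counts were 2 and 10, where 21.6% of all genes rose and 32.0% fell. *Trim28*, the corepressor that recruits SETDB1, had 2517 to 2592 TPM in wild-type cells at day 0 and 867 to 903 TPM at day 3, and *Zfp57*, a zinc finger protein that brings TRIM28 to imprinted loci, had 895 to 1023 and 142 to 156 TPM. *Atf7ip*, a partner that stabilises SETDB1, was lower in knockout cells at day 0 (log2 -0.56) and day 1 (-0.82). Of the whole list 4 were lower at day 0 and 5 at day 1, and 0 were higher. Over all genes, 6.8% and 13.6% were lower and 5.08% and 3.74% higher. Without wild-type day 0 replicate 1, which leaves 1 library there, fewer passed at day 0, in the list and over all genes. The median log2 difference of the list was then -0.20. With an equal median 2 were lower at day 0, where 4.2% of all genes were. At day 1 it gave 3 higher and 2 lower, where 8.83% and 5.24% of all genes were.

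Around *Smarcad1*, 29 other SNF2-type remodellers were tested. From day 0 to day 3 of RA, 2 rose and 16 fell in wild-type cells and 4 rose and 11 fell in knockout cells. Of all genes, 29.6% rose and 22.5% fell in wild-type cells, and 29.7% rose and 21.8% fell in knockout cells. Without wild-type day 0 replicate 1, which leaves 1 library there, fewer passed as lower, and the median log2 change of the list in wild-type cells was -0.40. With an equal median 2 rose and 25 fell in wild-type cells, where 24.4% of all genes rose and 28.3% fell. In knockout cells 3 rose and 20 fell with it, where 21.6% of all genes rose and 32.0% fell. *Hells*, a remodeller that DNA methylation depends on, fell with *Smarcad1*, from 216 to 227 TPM at day 0 to 83.8 to 90.2 TPM at day 3 in wild-type cells, while *Smarca2*, an ATPase of the BAF complex, rose (log2 2.48). In knockout against wild-type cells, 4 were lower at day 0, 10 at day 1 and 0 at day 3, and 0 were higher. Over all genes, 6.8%, 13.6% and 3.56% were lower and 5.08%, 3.74% and 3.96% higher. At day 0 fewer passed without wild-type day 0 replicate 1, in the list and over all genes, and the median log2 difference of the list was -0.25. The day 1 count was 6 after quantile and after equal-median scaling, where 7.27% and 5.24% of all genes were lower. With voom it was 10, where 10.6% of all genes were lower.

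**Figure D4:**
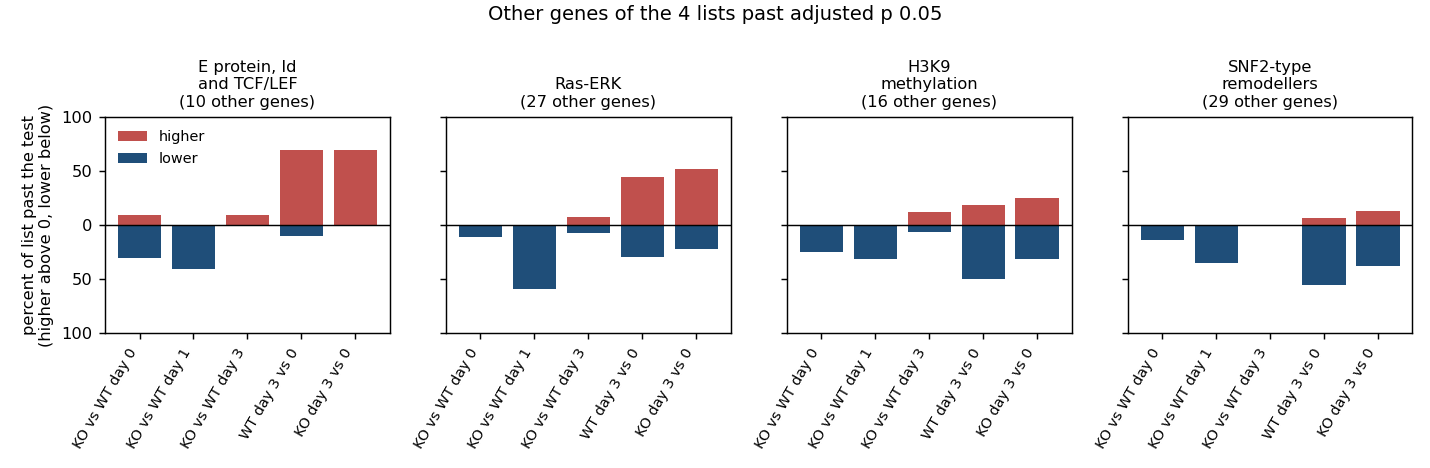
Percent of the other genes of each list that passed the limma test, higher above 0 and lower below 0, in knockout against wild-type cells (KO vs WT) at each day and at day 3 against day 0 in each genotype. In the Ras-ERK list 16 of 27 genes are lower in knockout cells at day 1, where 13.6% of all genes are. With libraries scaled to an equal median 2 are lower, where 5.24% of all genes are. With voom 15 are lower, where 10.6% of all genes are.

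The pattern over all 17 libraries was compared between genes by Pearson's r on the log2(TPM + 1) scale, as a description over libraries that share 6 groups and 1 line of each genotype. *Smarcad1* was most like *Rif1*, a replication timing factor (r = 0.989), *Heatr1*, which acts in ribosomal RNA synthesis (0.980), and *Cnot10*, a subunit of the CCR4-NOT deadenylase (0.980). *Rif1* had 207 to 213 TPM in wild-type and 150.3 to 161 TPM in knockout cells at day 0 and 41.8 to 53.2 and 42.1 to 64.9 TPM at day 3. *Setdb1* was most like *Jade1*, a subunit of a histone acetyltransferase complex (0.961), *Ahctf1*, a nuclear pore protein (0.959), and *Pole*, the catalytic subunit of DNA polymerase epsilon (0.958). *Tcf3* was most like *Vasn* (0.973), *Pld1*, a phospholipase (0.970), and *Arhgef28* (0.969). *Nras* had lower values, with *Slc35a4* (0.900), *Diaph2*, a formin (0.890), and *Slc44a1*, a choline transporter (0.881). Among the 4 genes, *Smarcad1* and *Setdb1* ran together (r = 0.84), *Tcf3* and *Smarcad1* ran opposite (-0.74), and the other pairs lay between -0.37 and 0.40. Without wild-type day 0 replicate 1 the value for *Tcf3* and *Nras* went from 0.19 to 0.59.

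Neighbouring genes were read because the library kit does not mark the strand. The last exon of *Setdb1* overlaps that of *Cers2*, a ceramide synthase gene on the other strand, by 75 bases, and reads there cannot be assigned to 1 of them. *Cers2* rose while *Setdb1* fell, from 49.5 to 56.0 TPM at day 0 to 95.7 to 107.7 TPM at day 3 in wild-type cells. *Setdb1* also shares 249 exon bases with *Gm37500*, an unclassified gene on the other strand that was at 2.76 TPM or less in every library. No annotated gene overlaps *Tcf3* or *Smarcad1*. Whether reads of a neighbour entered a value was not tested.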

How the data were processed

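Total RNA of the 17 libraries was made into NEBNext Ultra libraries and sequenced on an Illumina NovaSeq. Per the labels' processing notes, HISAT2 2.1.0, StringTie 1.3.6 and GRCm38.p6 were used. The authors deposited TPM per gene, computed from gene length and mapped reads. Gene lengths from GENCODE M21 gave reads within 0.01 of a whole number for 95.9 to 96.7% of values above 0, and these were used for depth and for voom. Columns were matched to samples by name. The 4 genes and the lists were chosen with earlier results of these data known. Genes with at least 1 TPM in at least 2 libraries (21871) were fitted by limma 3.58.1 (R 4.3.3) on log2(TPM + 1), with 6 group means, a mean-variance trend and Benjamini-Hochberg adjustment, a script tested on simulated data. Fold changes are on that scale and understate those of low genes. The named genes were the 4 genes, *Usb1*, relatives and partners and up to 2 rises and 2 falls per list and comparison, the 3 most alike genes and the neighbours. Alternatives were another pseudocount (0.1), other filters (none, 5 TPM), quantile and equal-median scaling, only the compared groups, the replicate number as a block, voom, and leaving out each library. Some genes of the lists and neighbours are not reported here.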

Additional observations from a re-analysis of the deposited data

Results flagged for a closer look

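Knockout minus wild-type responses to RA are given on the log2 scale with limma's adjusted p. For *Tcf3* at day 1 every wild-type library had moved up and every knockout library down from the day 0 mean (-0.475), but the test of the difference missed the threshold (adjusted p = 0.0807), and without wild-type day 0 replicate 1 the value was -0.25 (adjusted p = 0.279). The other 25 values were picked because they passed the test, so that they passed is not a result. Each was among the 2 largest rises or 2 largest falls of its list in that comparison. The lists had 10, 27, 16 and 29 tested genes, and 2.23%, 6.15% and 7.61% of all genes passed in the 3 comparisons. With libraries scaled to an equal median, 15 of the 25 passed, and 9 of the 16 that use day 0 passed without wild-type day 0 replicate 1. All kept their sign in both.

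Among Id and TCF/LEF genes, *Id3* differed by -1.01 at day 1 (adjusted p = 0.00203) and -0.513 at day 3 (0.0388), *Id4* by -0.989 (0.0461) and -0.853 (0.0489), and *Tcf7* by 0.583 at day 3 (0.0107). From day 1 to day 3, *Id1* differed by 0.558 (adjusted p = 0.0238) and *Id2* by 0.915 (0.00368).

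Among Ras regulators, *Rasgrp3* differed by -2.22 at day 1 (adjusted p = 0.000319) and by 1.71 from day 1 to day 3 (0.000147), and *Grb2* by -0.506 at day 1 (0.00634). *Spred1* differed by 1.18 at day 3 (adjusted p = 0.000118), and *Spred2* by 1.25 at day 3 (0.000979) and 1.21 from day 1 to day 3 (0.000409).

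Among H3K9 methylation genes, *Trim28* differed by 0.297 at day 1 (adjusted p = 0.0345), and *Zfp57* by 0.586 at day 1 (0.0201) and 0.639 at day 3 (0.00547). *Atf7ip* differed by 0.741 at day 3 (adjusted p = 0.0415) and 0.996 from day 1 to day 3 (0.00498). From day 1 to day 3, *Suv39h2* differed by 0.568 (adjusted p = 0.0437) and *Ehmt2* by -0.229 (0.0199).

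Among remodellers, *Smarca1* differed by 0.722 at day 1 (adjusted p = 0.0345) and 0.941 at day 3 (0.00402), and *Chd7* by 0.891 at day 3 (0.0281). From day 1 to day 3, *Chd9* differed by 0.962 (adjusted p = 0.0265) and *Smarca2* by 0.916 (0.0339).

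Calls lost without wild-type day 0 replicate 1 were *Id4* at day 1 (-0.81, adjusted p = 0.171) and day 3 (-0.67, 0.18), *Tcf7* at day 3 (0.51, 0.053), *Trim28* at day 1 (0.32, 0.0844), *Atf7ip* at day 3 (0.81, 0.0733), *Smarca1* at day 1 (0.62, 0.138) and *Chd7* at day 3 (0.76, 0.117). Calls lost with an equal median were *Id3* at day 1 (-0.89, adjusted p = 0.0645) and day 3 (-0.62, 0.125), *Id4* at day 1 (-0.91, 0.0959), *Tcf7* at day 3 (0.48, 0.0722), *Grb2* at day 1 (-0.39, 0.117) and *Trim28* at day 1 (0.41, 0.193). From day 1 to day 3 they were *Id1* (0.34, 0.423), *Id2* (0.69, 0.105), *Suv39h2* (0.35, 0.223) and *Smarca2* (0.79, 0.0609).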

How the results depend on the processing

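Values are log2 differences with limma's adjusted p in parentheses, and the causes of the changes were not tested. Of 48 values of the 4 genes, 21 passed the test, and 16 to 28 did under the alternatives. With a pseudocount of 0.1 all 48 kept their direction and call. Without a filter, *Nras* at day 1 against day 0 in knockout cells was -0.26 (0.0653). At a filter of 5 TPM, *Nras* in knockout against wild-type cells at day 0 (-0.32, 0.0426) and *Setdb1* at day 1 (-0.22, 0.0494) passed. Quantile normalization turned *Smarcad1* (0.10) and *Nras* (0.093) in knockout against wild-type cells at day 1, *Setdb1* at day 3 against day 1 in knockout cells (-0.033), and the genotype difference in response for *Setdb1* at day 1 (0.032) and for *Smarcad1* (-0.010) and *Nras* (-0.036) from day 1 to day 3. It lost *Tcf3* in knockout against wild-type cells at day 1 (-0.29, 0.0534) and *Nras* at day 1 against day 0 in knockout cells (-0.22, 0.078).

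Scaling to an equal median turned *Smarcad1* (0.18), *Nras* (0.23) and *Setdb1* (0.017) in knockout against wild-type cells at day 1, *Nras* at day 3 against day 0 (-0.17) and *Setdb1* at day 3 against day 1 (-0.19, 0.0152) in knockout cells, and the genotype difference in response for *Setdb1* at day 1 (0.11) and for *Smarcad1* (-0.089), *Nras* (-0.17) and *Setdb1* (-0.038) from day 1 to day 3. It lost *Smarcad1* at day 0 (-0.25, 0.0624) and *Tcf3* at day 1 (-0.082, 0.616) in knockout against wild-type cells, *Tcf3* at day 1 against day 0 in wild-type cells (0.14, 0.301), and *Tcf3* at day 3 against day 0 (0.19, 0.0836) and *Nras* at day 3 against day 1 (0.18, 0.174) in knockout cells. It added *Nras* at day 3 against day 0 (-0.43, 0.00581) and *Setdb1* at day 3 against day 1 (-0.15, 0.0487) in wild-type cells. Over all genes it moved the calls from 5569 higher and 2742 lower to 3845 and 4181 at day 1 against day 0 in wild-type cells, and from 6469 and 4927 to 5332 and 6196 at day 3.

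With only the groups compared in the fit, *Smarcad1* in knockout against wild-type cells at day 0 (-0.38, 0.0601), *Tcf3* (0.34, 0.174) and *Setdb1* (-0.28, 0.0834) at day 1 against day 0 in wild-type cells, and *Setdb1* at day 3 against day 0 (-0.25, 0.0671) and *Smarcad1* at day 3 against day 1 (-0.32, 0.0848) in knockout cells did not pass. Voom turned *Smarcad1* (0.043) and *Nras* (0.093) in knockout against wild-type cells at day 1, *Setdb1* at day 3 against day 1 in knockout cells (-0.085), and the genotype difference in response for *Setdb1* at day 1 (0.024) and *Nras* from day 1 to day 3 (-0.039). It lost *Tcf3* in knockout against wild-type cells at day 1 (-0.22, 0.0603) and added *Nras* at day 3 against day 0 (-0.24, 0.0299) and *Setdb1* at day 3 against day 1 (-0.18, 0.0349) in wild-type cells, and the genotype difference for *Tcf3* at day 1 (-0.45, 0.0467) and *Smarcad1* at day 3 (0.39, 0.0363).

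Replicate numbers did not pair the samples, since the deviations of libraries with the same number correlated at a mean of -0.012 over 40 pairs. With the replicate number as a block, 20 values passed, and the call that changed was *Nras* at day 1 against day 0 in knockout cells (-0.26, 0.0524).

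Leaving out 1 library at a time gave these ranges where a direction or call changed. In knockout against wild-type cells they were -0.076 to 0.38 for *Tcf3*, -0.42 to -0.33 for *Smarcad1* and -0.46 to -0.18 for *Nras* at day 0, -0.34 to -0.29 for *Tcf3* and -0.047 to 0.034 for *Nras* at day 1, and -0.11 to 0.048 for *Setdb1*, -0.024 to 0.17 for *Smarcad1* and -0.067 to 0.11 for *Nras* at day 3. In wild-type cells they were 0.12 to 0.57 for *Tcf3* and -0.34 to -0.23 for *Setdb1* at day 1 and -0.36 to -0.078 for *Nras* at day 3, against day 0. In knockout cells they were -0.30 to -0.23 for *Nras* and -0.33 to -0.25 for *Setdb1* at day 1 against day 0, -0.33 to -0.16 for *Setdb1* at day 3 against day 0, and -0.41 to -0.21 for *Smarcad1* and -0.043 to 0.12 for *Setdb1* at day 3 against day 1. The genotype difference in response ranged over -0.70 to -0.25 for *Tcf3*, -0.056 to 0.058 for *Setdb1* and 0.17 to 0.45 for *Nras* at day 1, -0.42 to 0.036 for *Tcf3*, 0.35 to 0.55 for *Smarcad1* and 0.22 to 0.50 for *Nras* at day 3, and -0.057 to 0.12 for *Nras* from day 1 to day 3. Counting error was at most 2.56% for the 4 genes, and wild-type cells at day 0 had 2 libraries.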
